A study of Mus musculus with 57 samples.

Results

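The 33 gene records described here encode the chains of integrins and the proteins that link integrins to the actin cytoskeleton. They were chosen by name among the 56332 genes of the deposited count table. Every gene with an Ensembl ID whose symbol is that of an integrin alpha chain (Itga and a number or letter) or of Itgb1 to Itgb8 was taken, together with the adaptors Fermt2, Fermt3, Tln1, Tln2, Vcl and Ilk. They carry 32 symbols, because Itgam is listed under 2 Ensembl IDs. RNA-seq of mouse bone marrow gave an estimated count for each of them in 57 libraries. All mice were male C57BL/6, 8 weeks old, and had received for 4 weeks either the antibody against PAPP-A (aPAPPA in the labels) or a control antibody, whose kind is not stated. PAPP-A is a secreted protease that cleaves binding proteins of the insulin-like growth factors. Treated and control libraries numbered 4 and 6 for mesenchymal stromal cells (MSC), 4 and 3 for hematopoietic stem cells (HSC), 4 and 4 each for common lymphoid (CLP), granulocyte macrophage (GMP) and megakaryocyte erythrocyte (MEP) progenitors, and 6 and 6 for Myeloid cells. Whole bone marrow (WBM), which was not sorted, had 4 control libraries and no treated one. Each library came from a numbered pool of mice. Neither the sort gates nor the number of mice in a pool is stated.

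An integrin is a pair of 1 alpha and 1 beta chain, and the alpha chain largely sets which ligand it binds: laminins, collagens, proteins with an RGD motif such as fibronectin and vitronectin, or receptors on other cells such as VCAM-1 and the ICAMs. Talins (Tln1, Tln2) and kindlins (Fermt2, Fermt3) bind the tail of the beta chain and switch the pair to its ligand-binding state, vinculin (Vcl) ties talin to actin, and Ilk joins kindlin to the parvins. In bone marrow, integrins are known for holding stem cells and progenitors in place against VCAM-1 and fibronectin, for the arrest of leukocytes on vessel walls, and, as Itga2b with Itgb3, for the aggregation of platelets. Itgam (CD11b) and Itga2b (CD41) are also common antibody targets in sorting marrow. Whether a gate here used either is not stated, so their differences between sorted populations cannot be told apart from the choice of cells.

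Library totals ran from 107412 estimated counts (an HSC library) to 125537299 (a Myeloid library), and 4 libraries held fewer than 1000000: control MSC pool 7, treated MSC pool 8, treated HSC pool 6 and control CLP pool 5. Levels below are CPM, counts scaled to a library of 1000000 with 1 TMM scaling over all libraries, and a level set beside that of another gene is given per kilobase of exon. The labels name 3 batches. HSC, CLP, GMP and MEP were all in batch A, Myeloid cells in B and C, MSC in A and C, and WBM in A and C. The summed level of 8 stromal markers was 31693 to 56808 CPM in control MSC libraries and at most 782 CPM in control HSC libraries, and 6 stem cell markers summed to 655 to 873 CPM in control HSC and at most 31.2 CPM in control MSC. The MSC libraries also held RNA of blood cells: 7 neutrophil markers summed to 1497 to 12673 CPM in treated and 869 to 7715 CPM in control MSC, and 5 B and plasma cell markers to 22.9 to 1048 CPM in treated and 16.8 to 7598 CPM in control MSC, highest in control pool 7. The 5 lymphoid progenitor markers, Ighm among them, summed to 41.2 to 31621 CPM in treated and 24.9 to 127060 CPM in control MSC. CLP libraries carried granulocyte-monocyte progenitor markers at 3086 to 10195 CPM in treated and 2826 to 9387 CPM in control libraries. In bulk samples, fewer cells of a type and less RNA per cell cannot be told apart.

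The windows before the transcription start of 4 members are printed because of their levels by population: Itgam was highest in Myeloid cells, Fermt3 was lower in MSC than in every other population, and Itgav and Itgb5 were highest in MSC. Each line holds the 250 bases before the start, 5′ to 3′ on the gene's strand, from RefSeq on GRCm38.p6, where 23 of the 33 records had an entry. Capitals mark GAGGAA, a core that binds ETS factors such as PU.1, and GGGCGG, the GC box, each searched on both strands (as TTCCTC and CCGCCC on the other).
Itgam, chr7:128062390-128062639, plus strand: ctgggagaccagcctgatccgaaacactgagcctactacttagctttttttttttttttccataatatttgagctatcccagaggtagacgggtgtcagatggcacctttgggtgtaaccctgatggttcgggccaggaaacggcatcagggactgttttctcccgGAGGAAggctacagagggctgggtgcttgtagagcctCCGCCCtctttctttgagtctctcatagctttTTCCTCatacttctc
Fermt3, chr19:7019470-7019719, minus strand: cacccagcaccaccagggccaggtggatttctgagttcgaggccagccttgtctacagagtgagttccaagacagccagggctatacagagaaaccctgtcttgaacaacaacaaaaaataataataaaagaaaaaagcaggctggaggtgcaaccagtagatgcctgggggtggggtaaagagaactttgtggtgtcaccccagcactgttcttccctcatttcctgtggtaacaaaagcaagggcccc
Itgav, chr2:83724147-83724396, plus strand: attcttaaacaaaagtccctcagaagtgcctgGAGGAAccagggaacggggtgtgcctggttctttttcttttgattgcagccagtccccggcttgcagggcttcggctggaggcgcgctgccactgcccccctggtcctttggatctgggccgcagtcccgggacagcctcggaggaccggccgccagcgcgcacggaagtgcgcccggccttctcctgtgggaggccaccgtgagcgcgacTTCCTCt
Itgb5, chr16:33829415-33829664, plus strand: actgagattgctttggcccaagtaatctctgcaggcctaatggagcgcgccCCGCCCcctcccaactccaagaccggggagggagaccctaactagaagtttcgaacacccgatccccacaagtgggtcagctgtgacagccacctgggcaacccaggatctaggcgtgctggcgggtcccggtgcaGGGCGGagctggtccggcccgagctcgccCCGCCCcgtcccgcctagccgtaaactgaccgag
Of the 32851 windows of this length in the table, 23.3% held GAGGAA and 32.7% held GGGCGG, so a match is common. GAGGAA stood 84 and 15 bases before the start in Itgam, 218 and 7 bases before it in Itgav, and nowhere in the windows of Fermt3 and Itgb5. GGGCGG was found 3 times in the window of Itgb5, once in that of Itgam and in neither of the others. The windows of Itgav and Itgb5, both among the members highest in MSC, each held 18 CG pairs, against 6 in Itgam, 1 in Fermt3 and a median of 6 over all windows. Windows of other members high in MSC are not shown, and a link between CG pairs and level was not tested. A match is a description of the letters and not a binding site.

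Levels in the control libraries are given first for the alpha chains. Among the laminin receptors, Itga6 (CD49f, a partner of Itgb1 and Itgb4) was highest in HSC, at 151, 178 and 113 CPM. It stood at 44.9, 67.3, 32.2 and 64.6 CPM in GMP and at 38.4, 63.9, 54.3 and 49.9 CPM in MEP. No HSC library overlapped either. MSC had the lowest mean, with libraries from 0 through a median of 1.52 to 3.14 CPM, and overlapped Myeloid cells, whose lowest library was at 2.78 CPM. Itga3, another laminin receptor, reached 9.18 CPM in MSC and 5.70 CPM in HSC and stayed at or below 2.44 CPM in every other library. Itga7, which pairs with Itgb1 in muscle, did not exceed 1.75 CPM in any control library and was the 1 record that did not pass the filter on low counts in the population fit.

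The collagen receptors were a stromal group. Itga11, a receptor of fibrillar collagen, had a lowest, median and highest level of 80.7, 88.1 and 135 CPM in control MSC and did not exceed 0.355 CPM in any other control library. Itga1 ran at 80.9, 83.5 and 174 CPM in control MSC, where the highest value was that of the shallow pool 7, and at 6.09, 7.28 and 9.57 CPM in Myeloid cells. Itga10 averaged 15.1 ± 5.23 CPM in MSC (SD, n = 6) and at most 2.97 CPM in the other populations. Itga2, the collagen receptor of platelets, was the exception in this group: it was highest in HSC, at 3.72, 2.13 and 3.58 CPM, followed by MEP at 0.488 to 2.07 CPM, and averaged 0.13 ± 0.21 CPM in MSC (SD, n = 6). Itga1 overlaps Pelo and Itga10 overlaps Gm42957 on the same strand in GENCODE M21, so counts could be split between them.

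The RGD receptors did not share 1 pattern. Itga2b was highest in HSC, at 312, 301 and 198 CPM, and next in MEP, at 116, 215, 173 and 128 CPM. HSC and MEP overlapped, and both lay above every CLP library, at 59.3, 52.4, 23.2 and 88.9 CPM. Itgav, the chain that binds vitronectin and latent TGF-beta with several beta partners, ran at 124, 157 and 194 CPM (lowest, median, highest) in MSC and at 21.045, 27.8 and 44.1 CPM in Myeloid cells. Itga8 likewise was highest in MSC, with a mean of 20.5 ± 12.3 CPM (SD, n = 6), and averaged at most 2.06 CPM elsewhere. Itga5, the fibronectin receptor chain, was spread over all populations: it averaged 72.1 ± 19.1 CPM in MEP (SD, n = 4) and 23.4 ± 12.3 CPM in CLP (SD, n = 4), and each population overlapped its neighbour in the order of means.

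Itga4 and Itga9 belong to 1 structural family and were opposite. Itga4, the VCAM-1 receptor chain of blood cells, was highest in MEP, at 259, 371, 294 and 343 CPM, and stood at 188, 224 and 152 CPM in HSC. In control MSC its lowest, median and highest levels were 3.35, 12.8 and 49.7 CPM. Itga9 was at 64.3, 104 and 164 CPM in MSC (lowest, median, highest), then at 7.54, 5.70 and 4.63 CPM in HSC. Neither gene had an MSC library that overlapped another population.

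Of the leukocyte chains, Itgam (the alpha chain of the complement receptor Mac-1) was highest in Myeloid cells, at 1066.5, 1532 and 1765 CPM (lowest, median, highest). WBM stood at 491, 593, 504 and 561 CPM and GMP at 54.8, 42.1, 26.1 and 55.2 CPM. HSC held the lowest mean, at 9.96, 8.25 and 5.57 CPM, and overlapped MEP and MSC. The second record named Itgam, a GENCODE M21 gene of its own (Gm49368, chr7:128062683-128128160) that shares exons with the first, averaged 20.6 ± 10.9 CPM in Myeloid cells (SD, n = 6) and at most 0.329 CPM in the other sorted populations. How reads were split between both records is uncertain. Itgal (the alpha chain of LFA-1) ran from 201 to 411 CPM in Myeloid cells and from 65.7 to 125 CPM in GMP, against 11.4, 7.74 and 4.63 CPM in HSC. Itgax (CD11c) averaged 16.8 ± 10.5 CPM in CLP (SD, n = 4) and 13.1 ± 3.87 CPM in Myeloid cells (SD, n = 6), and these overlapped. In HSC it was detected in 1 of 3 libraries, at 0.421 CPM. Itgad averaged at most 3.27 CPM (in WBM), and Itgae (CD103) at most 1.96 CPM (in Myeloid cells).

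**Figure D1:**
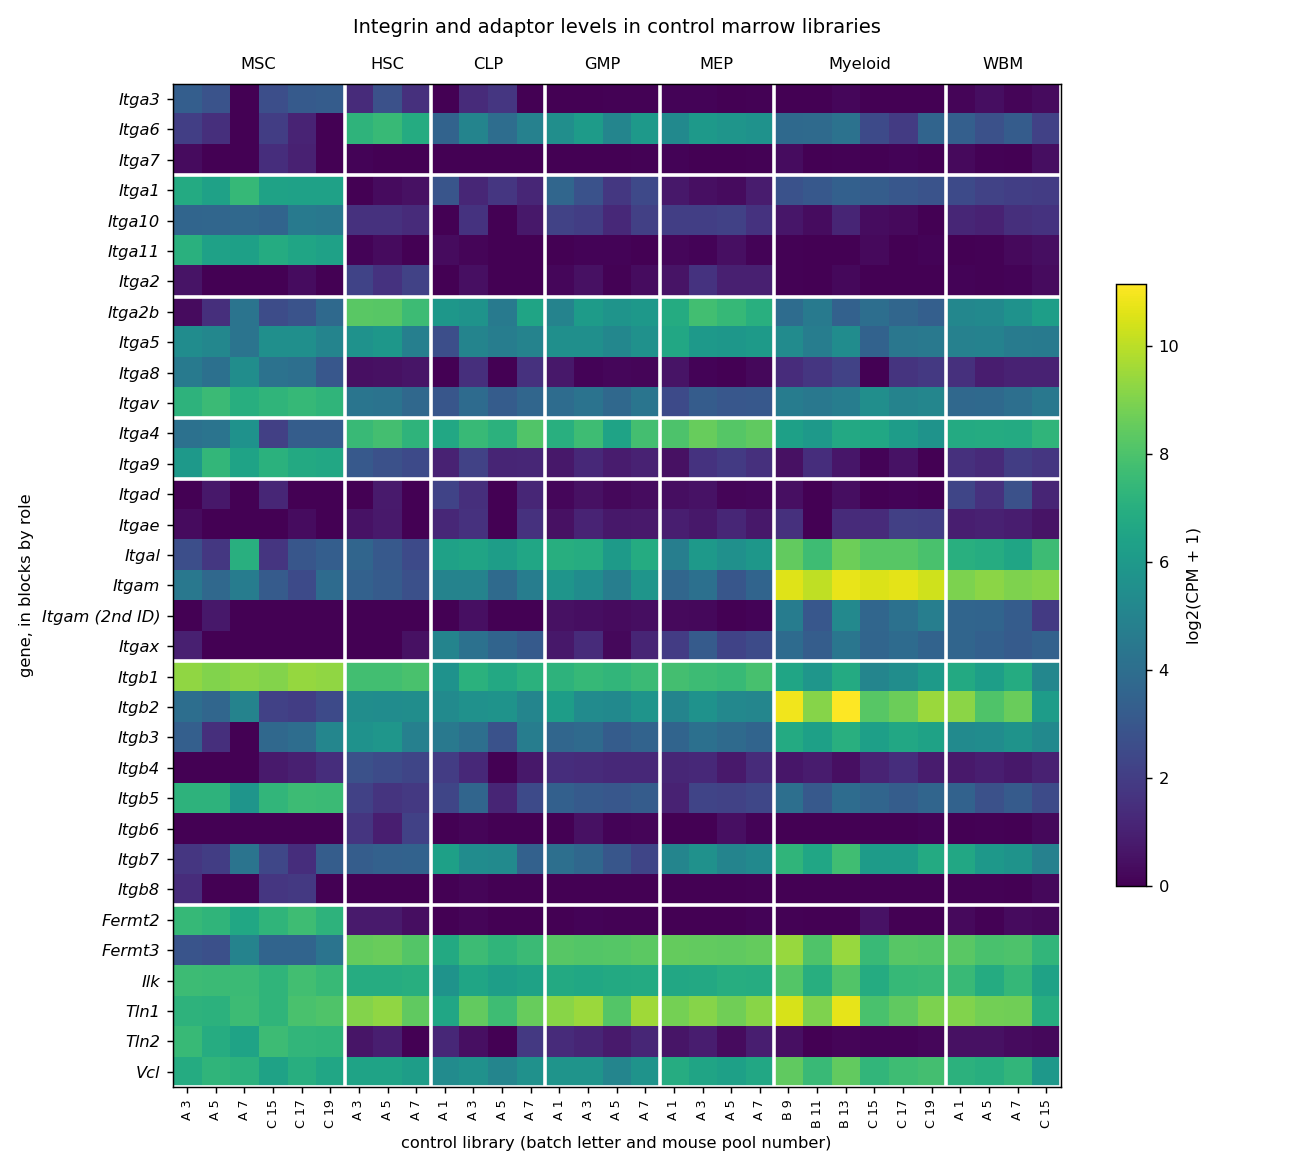
Levels of the 33 records (rows, grouped by role) in each of the 31 control libraries (columns, grouped by population), as log2(CPM + 1) on a colour scale. MSC columns are bright for Itga11, Itga9, Itgav, Itgb5, Fermt2 and Tln2 and dark for Fermt3, Itga4 and Itga2b, while Myeloid columns are brightest for Itgam and Itgb2.

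Of the beta chains, Itgb1 and Itgb5 were highest in MSC, and Itgb2, Itgb3 and Itgb7 in Myeloid cells. Itgb1, the partner of most alpha chains, was at 524, 601 and 670 CPM (lowest, median, highest) in control MSC, and at 218, 215 and 246 CPM in HSC. Itgb5, a partner of Itgav, was at 55.9, 154 and 200 CPM in MSC and did not exceed 15.6 CPM elsewhere. Itgb2, the chain shared by Itgal, Itgam and Itgax, was at 307, 629 and 2257 CPM in Myeloid cells and at 3.07, 8.22 and 31.0 CPM in MSC. Itgb3, which pairs with Itga2b and Itgav, averaged 97.1 ± 21.1 CPM in Myeloid cells (SD, n = 6) and 44.6 ± 15.0 CPM in HSC (SD, n = 3), without overlap. Itgb7, a partner of Itga4 and Itgae, averaged 119 ± 56.1 CPM in Myeloid cells (SD, n = 6), 60.3 ± 30.1 CPM in WBM and 42.8 ± 28.8 CPM in CLP (SD, n = 4 each), where its libraries spread from 9.88 to 80.0 CPM. Itgb4, Itgb6 and Itgb8 stayed low: Itgb4 and Itgb6 were highest in HSC, at 4.84 ± 0.889 and 2.24 ± 1.27 CPM (SD, n = 3), and Itgb8 in MSC, at 1.12 ± 1.26 CPM (SD, n = 6).

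The kindlin paralogs were opposite. Fermt2, the kindlin of tissues other than blood, was at 99.3, 155 and 202 CPM (lowest, median, highest) in control MSC and did not exceed 0.765 CPM in any other control library. Fermt3, the kindlin of blood cells, was at 5.60, 11.1 and 31.0 CPM in MSC and at 107 CPM or more in every control library of every other population. Talins were divided too, though less evenly. Tln2 was at 86.9, 159 and 200 CPM in MSC and at or below 2.64 CPM elsewhere, whereas Tln1 was present throughout, with a mean of 192 ± 54.9 CPM in MSC (SD, n = 6) and 496 ± 142 CPM in HSC (SD, n = 3). Vcl averaged 246 ± 83.3 CPM in Myeloid cells and 120 ± 26.6 CPM in MSC (SD, n = 6 each), and 42.3 ± 7.26 CPM in CLP (SD, n = 4). Ilk varied least among the adaptors between populations, with means from 75.8 ± 17.3 CPM in CLP (SD, n = 4) to 194 ± 72.6 CPM in Myeloid cells (SD, n = 6).

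**Figure D2:**
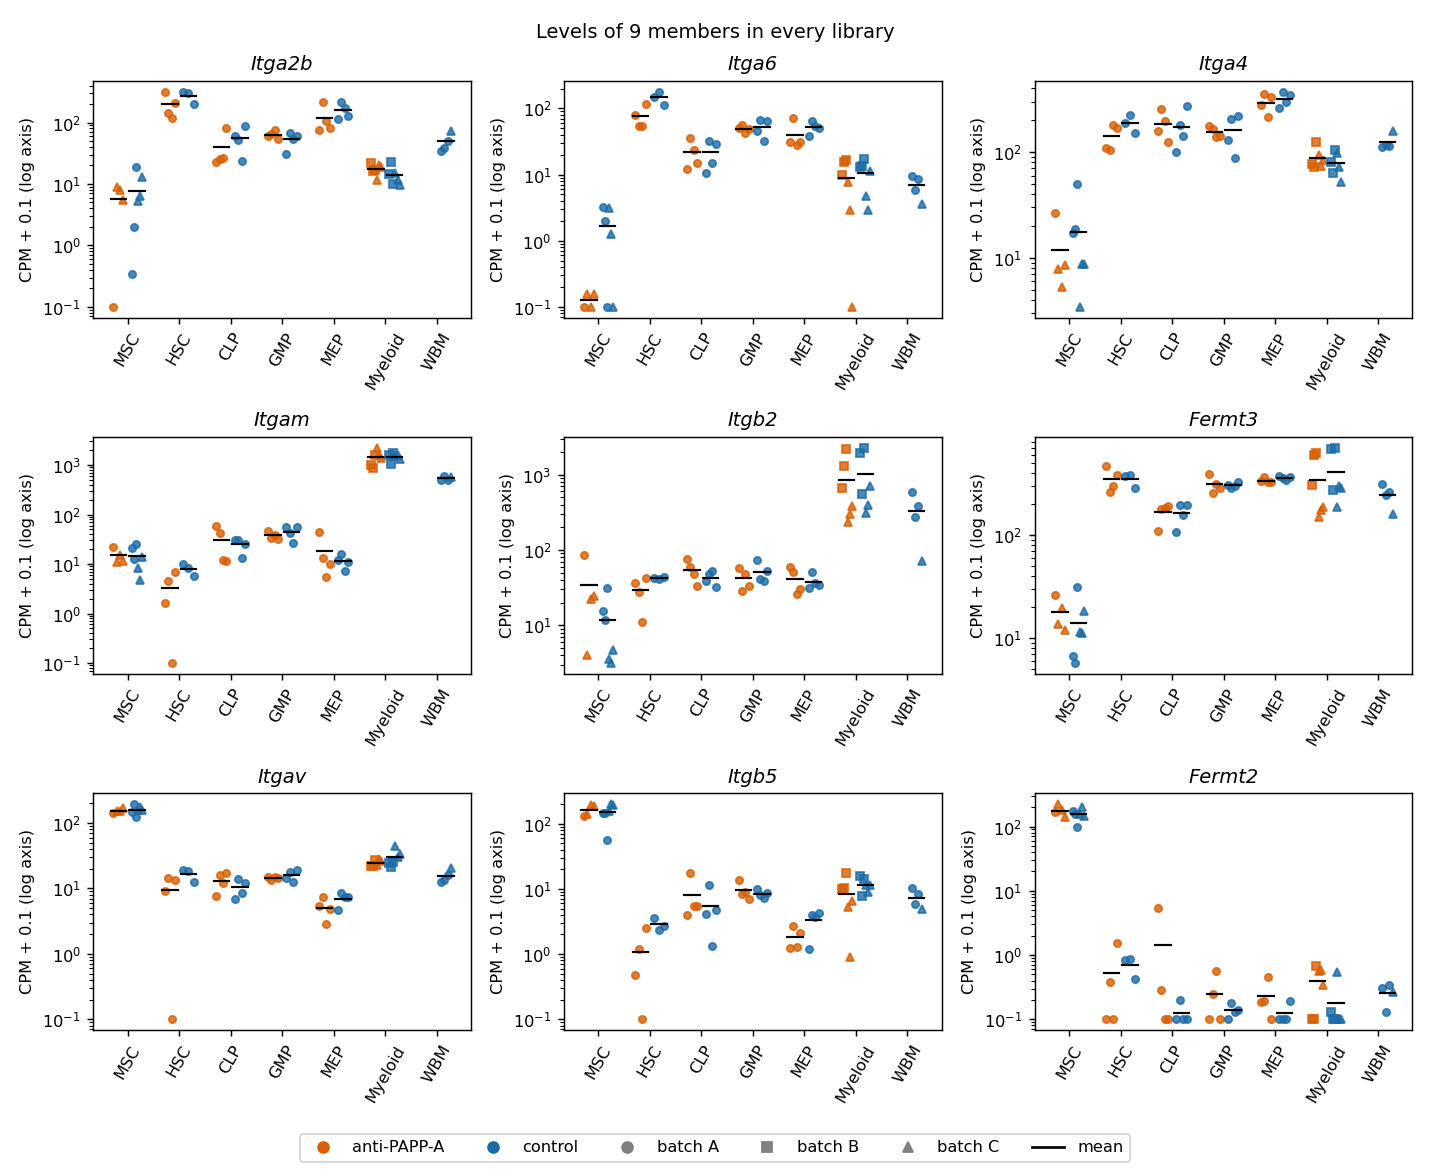
CPM + 0.1 on a log axis for 9 members in every library, by population, with anti-PAPP-A libraries left of control libraries and the marker shape giving the batch. The MSC points of Fermt2 and Itgav lie above those of all other populations and those of Fermt3 below them, treated and control points overlap in most populations, and the Myeloid points of Itgb2 lie mostly higher in batch B than in batch C.

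Some members differed between batches within a population. The Myeloid batches also differed in mouse pools and depth, and the cause was not tested. In control Myeloid cells Itgb2 averaged 468 ± 209 CPM in batch C and 1582 ± 904 CPM in batch B (SD, n = 3 each), and Tln1 averaged 362 ± 128 and 1204 ± 621 CPM. The batches overlapped in control Itgb2, with pool 11 of batch B at 555 CPM and pool 19 of batch C at 704 CPM. Treated Myeloid cells showed the same order of means, with Itgb2 at 306 ± 71.7 CPM in batch C and 1379 ± 762 CPM in batch B. In WBM the 1 library of batch C had 70.9 CPM of Itgb2, below 271 to 584 CPM in batch A. Itgam did not share this difference: control Myeloid cells averaged 1479 ± 163 CPM in batch C and 1467 ± 360 CPM in batch B. The population fit carries a batch term, so that Myeloid values are tied to the other populations through batch C alone.

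Scaled to gene length, 1 beta chain accounted on average for most beta-chain RNA in each population other than CLP. In control MSC Itgb1 made up 74.4 ± 3.85% of the summed beta level per kilobase and Itgb5 another 21.3 ± 6.26% (SD, n = 6). Itgb1 led in HSC at 67.4 ± 3.22% (SD, n = 3), in MEP at 63.5 ± 5.92% and in GMP at 62.8 ± 7.84% (SD, n = 4 each). In CLP its share was 43.7 ± 17.3%, with Itgb7 at 25.3 ± 17.5% and Itgb2 at 23.4 ± 4.28% (SD, n = 4), and no chain was apart from the others in all libraries. Itgb2 led in Myeloid cells, at 76.3 ± 7.77% (SD, n = 6), and in WBM, at 63.0 ± 11.6% (SD, n = 4).

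Alpha chains were led by a single member in fewer populations. Itgam made up 80.4 ± 1.71% of the summed alpha level per kilobase in Myeloid cells (SD, n = 6) and 67.5 ± 3.78% in WBM (SD, n = 4). Itga2b made up 52.0 ± 2.16% in HSC (SD, n = 3) and 33.8 ± 5.46% in MEP, where Itga4 followed at 26.8 ± 2.34% and Itga5 at 17.9 ± 6.89% (SD, n = 4). The order in MEP depends on the length used, the union of all exons, which was 13978 bases for Itga4 and 5454 for Itga2b. In CPM, not scaled to length, Itga4 averaged 317 and Itga2b 158 in MEP. In MSC the level was spread over Itga11 (24.8 ± 6.11%), Itgav (19.3 ± 3.90%) and Itga9 (18.6 ± 6.34%; SD, n = 6). In GMP and CLP Itgal held the largest mean share, at 25.1 ± 3.69% and 24.6 ± 3.45% (SD, n = 4 each). RNA shares do not give the amounts of assembled pairs.

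**Figure D3:**
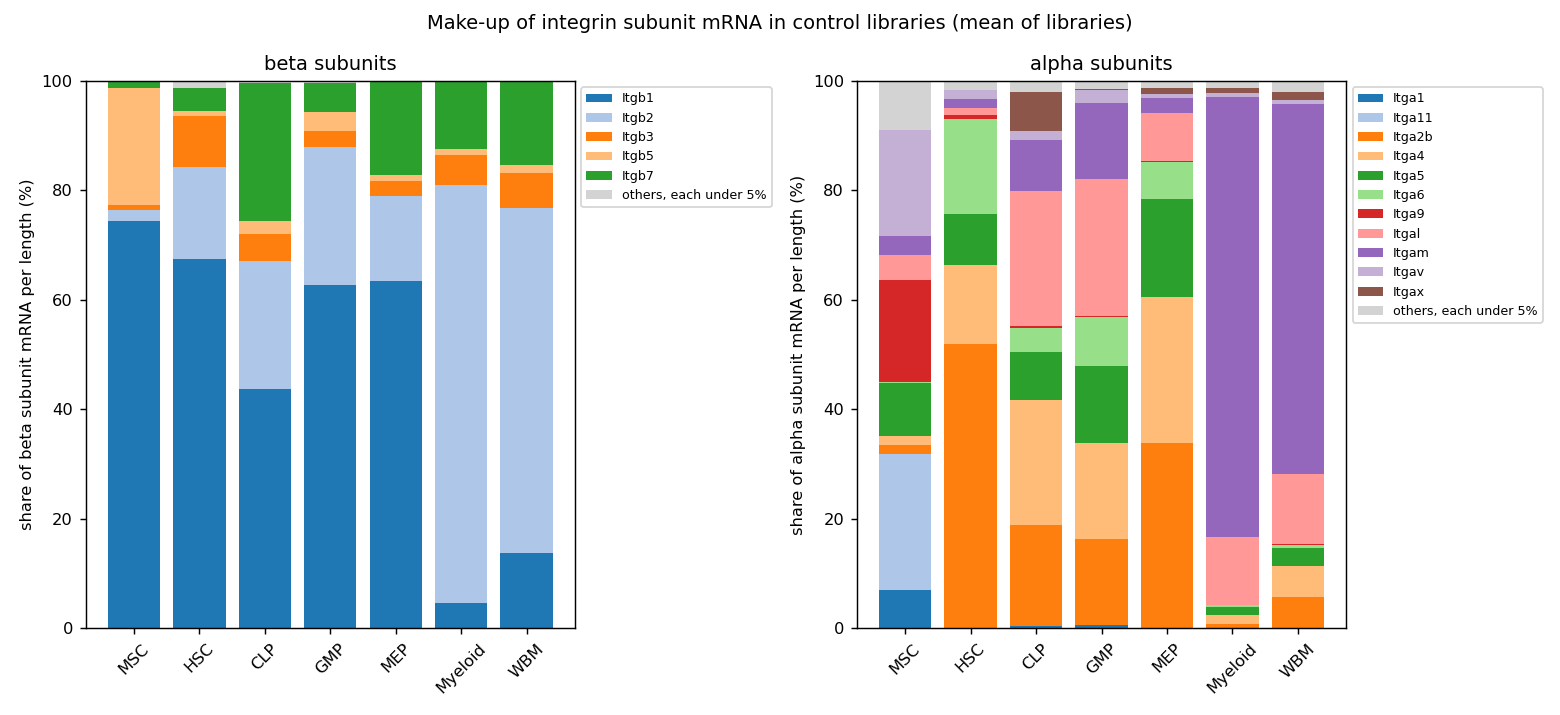
Mean share of each beta chain (one panel) and each alpha chain (the other) in the summed level per kilobase of exon, in percent, as stacked bars for each population of control libraries. Itgb1 fills most of the beta bar in MSC, HSC, MEP and GMP and Itgb2 most of it in Myeloid cells and WBM, and Itgam fills most of the alpha bar in Myeloid cells and WBM.

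Chains known to pair did not always peak in the same population. Over the means of the 7 populations (one of which, WBM, contains the others), Spearman's rho was 0.96 for Itga6 with Itgb4, 0.89 for Itgal with Itgb2 and for Itgae with Itgb7, and 0.86 for Itgam with Itgb2. It was 0.68 for Itga9 with Itgb1, 0.64 for Itgav with Itgb5, 0.61 for Itga5 with Itgb1 and 0.57 for Itgax with Itgb2. The lowest values were those of Itga2b with Itgb3 (0.11, highest in HSC and in Myeloid cells), Itgav with Itgb3 (0.14), Itga4 with Itgb1 and Itga6 with Itgb1 (0.18 each), and Itga4 with Itgb7 (-0.07). These 13 values describe 7 points that share libraries and depth, and carry no test.

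Which of these differences exceeded the spread between pools was tested in 1 edgeR quasi-likelihood fit of the 31 control libraries with a batch term, in which each population was set against the mean of the other 5 sorted ones and all 21384 genes tested entered the Benjamini-Hochberg adjustment. An adjusted p under 0.05 was called. Of the 33 records 32 were tested. Log2 differences below are from this fit, with their standard errors (SE). The mean of the others takes in MSC, whose level was often far from the rest. A call against that mean need not hold against each population.

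MSC had the most members past the threshold. Here 27 of 32 members passed, 14 higher and 13 lower, where 48.8% of all genes passed, 28.7% higher and 20.1% lower. Among the adaptors, Fermt2 was higher by 10.46 (SE 0.344, adjusted p = 8.22e-22) and Tln2 by 8.14 (SE 0.357, adjusted p = 2.17e-18). Among alpha chains Itga11 was higher by 9.89 (SE 0.373, adjusted p = 2.03e-20) and Itgav by 3.40 (SE 0.151, adjusted p = 1.1e-18). Outside MSC, Fermt2 and Itga11 averaged at most 0.608 and 0.165 CPM in any population. The sizes of their folds therefore rest on few counts in the other populations. By role, 3 of the 4 collagen receptors were higher and the fourth, Itga2, did not pass. The lower members with the smallest p were those of blood cells. Fermt3 was lower, at -4.57 (SE 0.340, adjusted p = 5.17e-13), as was Itga4, at -3.57 (SE 0.343, adjusted p = 2.44e-10). Itga2b was at -4.37 (SE 0.464, adjusted p = 2.87e-09) and Itgb2 at -2.45 (SE 0.318, adjusted p = 9.9e-08). Of the 8 beta chains 3 were higher (Itgb1, Itgb5 and Itgb8) and 5 lower.

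Against unsorted marrow, MSC gave nearly the same picture, with 24 of 32 members past the threshold, 13 higher and 11 lower, where 50.7% of all genes passed, 25.2% higher and 25.6% lower. The comparison shares its MSC libraries with the one above. Fermt2 was higher by 9.85 (SE 0.579, adjusted p = 1.07e-14), Itga11 by 9.54 (SE 0.642, adjusted p = 1.66e-13), Tln2 by 8.79 (SE 0.649, adjusted p = 2.05e-12) and Itgav by 3.37 (SE 0.242, adjusted p = 6.88e-13). Fermt2, Itga11 and Tln2 averaged 0.159, 0.150 and 0.310 CPM in WBM, so the sizes of their folds rest on few counts there. Itgam, the Mac-1 chain, had the smallest p of the lower members, at -5.28 (SE 0.324, adjusted p = 2.49e-14). It was followed by Itgb2 at -4.49 (SE 0.359, adjusted p = 6.94e-12), Fermt3 at -4.40 (SE 0.361, adjusted p = 1.21e-11) and Itga4 at -3.25 (SE 0.366, adjusted p = 1.11e-08).

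In HSC 15 of 32 members passed, 9 higher and 6 lower, where 18% of all genes passed, 12.3% higher and 5.74% lower. The stem cells were high in the platelet and laminin receptors and low in the leukocyte chains. The 7 megakaryocyte and platelet markers summed to 234 to 251 CPM in control HSC and 66.1 to 114 CPM in control MEP. The part of such RNA in the platelet receptors was not tested. Itga2b was higher by 3.61 (SE 0.343, adjusted p = 5.77e-09) and Itga6 by 3.01 (SE 0.409, adjusted p = 2.66e-06). Itgb6, which with Itgav activates latent TGF-beta, was also called higher (adjusted p = 5.89e-05), at 2.33, 0.935 and 3.47 CPM in HSC, against 0 in all 6 MSC libraries and at most 0.404 CPM in the rest, and DESeq2 did not call it (adjusted p = 0.0627). Itga3 was higher by 4.44 (SE 0.790, adjusted p = 0.000114). Itga2, Itgb4, Itgb3, Itga9 and Fermt3 made up the rest of those that rose. Of the 6 leukocyte records 4 were lower. Itgam was at -2.74 (SE 0.350, adjusted p = 6.2e-07), Itga1 at -4.84 (SE 0.633, adjusted p = 9.24e-07), Itgb5 at -2.08 (SE 0.417, adjusted p = 0.000417) and Itgax at -4.61 (SE 1.01, adjusted p = 0.00111). Itgax in HSC rests on counts in pool 7 alone, and without that pool its value was -9.03.

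In MEP the platelet receptor chain and Itga4 were among the higher members. Of 32 members 14 passed, 7 in each direction, where 25.2% of all genes passed, 15.1% higher and 10.1% lower. Itga2b was higher by 2.72 (SE 0.334, adjusted p = 3.15e-07), Itga4 by 1.73 (SE 0.280, adjusted p = 2.01e-05), Fermt3 by 1.45 (SE 0.264, adjusted p = 8.95e-05) and Itga5 by 1.26 (SE 0.275, adjusted p = 0.000771). The vitronectin receptor chains lay at the other end: Itgav was at -1.88 (SE 0.215, adjusted p = 6.17e-08) and Itgb5 at -1.78 (SE 0.358, adjusted p = 0.000296). Itgam was at -2.04 (SE 0.294, adjusted p = 3.12e-06) and Itga1 at -3.21 (SE 0.474, adjusted p = 4.65e-06).

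GMP and CLP had the fewest members past the threshold. In GMP 9 of 32 members passed, 3 higher and 6 lower, where 19.4% of all genes passed, 12.1% higher and 7.24% lower. Fermt3 was higher by 1.15 (SE 0.267, adjusted p = 0.002) and Vcl lower, at -1.16 (SE 0.209, adjusted p = 0.000131). Yet Fermt3 averaged 302 CPM in GMP, below Myeloid cells (403 CPM), MEP (357 CPM) and HSC (346 CPM). It was above CLP (163 CPM) and MSC (13.9 CPM) only among the sorted populations. The remaining lower members named by size of p were those high in stroma. Itga11 (adjusted p = 0.0042) and Fermt2 (adjusted p = 0.00753) each had 3 counts in all over the 4 GMP libraries, too few for a fold, and Itga9 was at -1.65 (SE 0.472, adjusted p = 0.0118; 0.0501 without control GMP pool 5). Itga6 was higher by 1.25 (SE 0.407, adjusted p = 0.0282) and Itgal by 1.39 (SE 0.479, adjusted p = 0.0415). Both calls ended with the mouse pool as a replicate block (adjusted p = 0.0631 and 0.0624), with the size factors of DESeq2 (0.0592 and 0.0757) and without control GMP pool 3 or 7.

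In CLP 7 of 32 members passed, 2 higher and 5 lower, where 12.6% of all genes passed, 7.43% higher and 5.2% lower. Both higher members were leukocyte chains: Itgax was higher by 3.69 (SE 0.561, adjusted p = 2.86e-05), and Itgad, at 3.72, 1.85, 0 and 1.32 CPM, by 3.16 (SE 1.03, adjusted p = 0.0398; 0.137 with the mouse pool as a replicate block). Vcl was at -1.45 (SE 0.218, adjusted p = 2.38e-05), Itgav at -1.24 (SE 0.222, adjusted p = 0.000256), Ilk at -0.98 (SE 0.221, adjusted p = 0.00306) and Itgb1 at -0.95 (SE 0.270, adjusted p = 0.0173). Itgav was not lowest in CLP: it averaged 10.3 CPM there and 6.87 CPM in MEP, against 159 CPM in MSC. The calls of Ilk, Itgb1 and Itgad ended without control CLP pool 1 (adjusted p = 0.119, 0.320 and 0.171).

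Myeloid cells were the population of the leukocyte chains. Of 32 members 17 passed, 9 higher and 8 lower, where 34.2% of all genes passed, 14.2% higher and 19.9% lower. Itgam was higher by 6.88 (SE 0.424, adjusted p = 6.71e-13), Itgb2 by 5.90 (SE 0.460, adjusted p = 4.45e-11) and Vcl by 1.98 (SE 0.288, adjusted p = 2.75e-06). The second Itgam record, at 0 in HSC, was called higher too (adjusted p = 3.6e-07). Itgal, Itgax, Itgb7, Itgb3 and Itga1 also rose. The lower members led with Itga9 at -4.98 (SE 0.769, adjusted p = 6.77e-06), Itga2b at -3.65 (SE 0.589, adjusted p = 1.64e-05), Tln2 at -4.74 (SE 0.908, adjusted p = 0.000144) and Itga10 at -4.70 (SE 0.924, adjusted p = 0.000185). Batch C ties Myeloid cells to the other populations. Its control Myeloid pools 15, 17 and 19 held 1, 6 and 0 counts of Itga9 and 1, 1 and 2 of Tln2. They held 4, 3 and 0 counts of Itga10, so the folds of Itga9, Tln2 and Itga10 rest on few counts. Sizes here depended on the batch term. Without it, an alternative chosen after seeing the data, Itgam was at 6.42 and Itgb2 at 5.03. Itga9 was then at -3.02, Itga2b at -2.17, Tln2 at -3.90 and Itga10 at -2.69, each still called, as were Itgam and Itgb2. In that fit 26 members and 12010 of all 21384 genes passed, against 17 and 7307 with the batch term.

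Progenitors were next set against HSC, and Myeloid cells against GMP. In GMP against HSC 14 of 32 members passed, 5 higher and 9 lower, where 16.8% of all genes passed, 6.77% higher and 10.1% lower. Itgam was higher by 2.52 (SE 0.368, adjusted p = 5.32e-06), Itgal by 3.76 (SE 0.751, adjusted p = 0.000632) and Itga1 by 4.77 (SE 0.660, adjusted p = 2.3e-06). The second Itgam record, at 0 in all 3 HSC libraries, was called higher too (adjusted p = 0.00751). Itga2b was lower in GMP, at -2.31 (SE 0.436, adjusted p = 0.000236), as were Itgb3 at -1.98 (SE 0.408, adjusted p = 0.000593) and Itga9 at -2.51 (SE 0.532, adjusted p = 0.000808). Itga3, with 2 counts in all over the 4 GMP libraries and 102 over the 3 HSC libraries, was called lower (adjusted p = 0.000253).

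In Myeloid cells against GMP 15 of 32 members passed, 8 higher and 7 lower, where 27.3% of all genes passed, 11% higher and 16.3% lower. Itgam was higher by 5.5 (SE 0.474, adjusted p = 7.9e-10), Itgb2 by 5.37 (SE 0.535, adjusted p = 1.24e-08), Vcl by 2.62 (SE 0.346, adjusted p = 1.12e-06) and the second Itgam record by 8.03 (SE 1.32, adjusted p = 3.37e-05). Itga2b was lower in Myeloid cells, at -3.73 (SE 0.683, adjusted p = 0.000132), Itga10 at -4.72 (SE 1.02, adjusted p = 0.000743), Tln2 at -3.85 (SE 1.01, adjusted p = 0.00482) and Itgb1 at -1.58 (SE 0.453, adjusted p = 0.00906). Itga10 and Tln2 had few counts in the Myeloid controls of batch C, as given above. Myeloid and GMP libraries never shared a batch. Without the batch term Itgb2 was at 4.28 and the second Itgam record at 5.92. Itga2b was then at -2.01, Itga10 at -2.64, Tln2 at -2.98 and Itgb1 at -1.38, with all 8 calls kept.

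In MEP against HSC 9 of 32 members passed, 3 higher and 6 lower, where 14% of all genes passed, 5.4% higher and 8.56% lower. Itgax was higher by 5.22 (SE 1.03, adjusted p = 0.000564), Itgal by 2.66 (SE 0.714, adjusted p = 0.012) and Itgb7 by 2.01 (SE 0.554, adjusted p = 0.0133). Itgav was lower, at -1.23 (SE 0.249, adjusted p = 0.000761), as were Itgb3 at -1.75 (SE 0.406, adjusted p = 0.00303) and Fermt2 at -3.47 (SE 0.811, adjusted p = 0.00318). Itga3 was called lower too (adjusted p = 0.00122), with 1, 1, 0 and 2 counts in the control MEP libraries, too few for a fold. Without HSC pool 7, the 1 HSC library with Itgax counts, Itgax was at 9.65, and without MEP pool 7, the 1 MEP library with Fermt2 counts, Fermt2 was at -6.55, both still called. Itga2b, at -0.73, did not pass. The call of Itgal ended without HSC pool 5 or 7 (adjusted p = 0.0579 and 0.0759) and that of Itgb7 without HSC pool 3 or 5 (0.0706 and 0.0627).

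In CLP against HSC 13 of 32 members passed, 5 higher and 8 lower, where 13.3% of all genes passed, 5.7% higher and 7.63% lower. Leukocyte chains were higher: Itgax by 6.92 (SE 1.07, adjusted p = 3.1e-05), Itgal by 3.37 (SE 0.742, adjusted p = 0.00297) and Itgam by 1.65 (SE 0.363, adjusted p = 0.00216), together with Itga1 by 3.67 (SE 0.712, adjusted p = 0.000553). Granulocyte-monocyte progenitor markers summed to 2826 to 9387 CPM in control CLP and 139 to 235 CPM in control HSC. Neutrophil markers summed to 329 to 8538 CPM in control CLP and 326 to 1680 CPM in control HSC. The part of such RNA in these differences was not tested. Without HSC pool 7, the 1 HSC library with Itgax counts, Itgax was at 11.33. Itga2b was at -2.30 (SE 0.442, adjusted p = 0.000561) and Itga6 at -2.79 (SE 0.544, adjusted p = 0.000694). Vcl was at -0.99 (SE 0.255, adjusted p = 0.00887) and Itgb1 at -1.12 (SE 0.324, adjusted p = 0.0195), and both calls ended without CLP pool 1 (adjusted p = 0.0857 and 0.186), without HSC pool 3 (0.0939 and 0.0960) and without HSC pool 5 (0.0972 each), while that of Itgb1 also ended without HSC pool 7 (0.0683). The comparisons against HSC share the 3 HSC control libraries.

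Other genes of the adhesion machinery and the ligands of integrins were counted from lists. Among 40 intracellular and membrane partners, 38 were tested in the population fit. In MSC 17 of them were higher and 9 lower, where 28.7% and 20.1% of all genes were, with a median log2 difference of 0.46, against 0.14 over all genes. Those higher were led by Enah, an actin regulator, which averaged 122 ± 39.1 CPM in MSC (SD, n = 6) and 1.15 ± 0.462 CPM in HSC (SD, n = 3), at a difference of 6.00 (SE 0.205, adjusted p = 2.03e-21). Tgfb1i1 (Hic-5), Lpp and the tetraspanin Cd151 followed, and Apbb1ip (RIAM), which recruits talin, Parvg, the parvin of blood cells, Git2 and Ptk2b led the lower ones. In Myeloid cells 13 partners were higher and 13 lower, where 14.2% and 19.9% of all genes were, with Actn1, the actin crosslinker alpha-actinin, at 629 ± 188 CPM (SD, n = 6) and a difference of 3.56 (SE 0.308, adjusted p = 2.85e-10). The counts of partners higher and lower were 8 and 7 in HSC (12.3% and 5.74% of all genes), 7 and 11 in GMP (12.1% and 7.24%), 6 and 12 in MEP (15.1% and 10.1%) and 0 and 7 in CLP (7.43% and 5.2%).

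Most of the ligands listed were higher in MSC. The list was chosen with earlier results of these data known and holds collagen and laminin chains. Its count in MSC was thus partly set by that choice and carries no test of ligands as a set. Of 32 listed, 28 were tested, and in MSC 24 were higher and 3 lower, where 28.7% and 20.1% of all genes were, with a median log2 difference of 6.14, against 0.14 over all genes. Vcam1, the counter-receptor of Itga4 with Itgb1, averaged 2083 ± 248 CPM in MSC (SD, n = 6) and 3.01 ± 1.24 CPM in HSC (SD, n = 3), and was higher by 7.11 (SE 0.195, adjusted p = 1.32e-23). Spp1 (osteopontin), Ltbp1 and the laminin chain Lama2 were higher by 8.33, 6.11 and 9.95 (adjusted p = 4.21e-22, 1.28e-21 and 6e-21). Tgfb1, Icam2 and Cdh1 were the 3 lower ones. Fn1, which encodes fibronectin, was also called higher in Myeloid cells, by 4.69 (SE 1.11, adjusted p = 0.00203). In MEP, 2 ligands were higher and 14 lower (15.1% and 10.1% of all genes), in GMP 6 and 13 (12.1% and 7.24%), in HSC 8 and 7 (12.3% and 5.74%), in CLP 2 and 4 (7.43% and 5.2%), and in Myeloid cells 6 and 6 (14.2% and 19.9%).

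Treatment left no member past the threshold in any sorted population. Within each, treated and control libraries were compared by edgeR's quasi-likelihood test, with a batch term for MSC and Myeloid cells and p-values adjusted over all genes tested. The members tested and not called numbered 27 in MSC, 24 in Myeloid cells, 23 in GMP, 22 in HSC, 20 in MEP and 18 in CLP. At an unadjusted p under 0.05 there were 2 in MSC, where 676 of 15984 genes had one, 1 in HSC, where 1156 of 14494 had one, and 0 in the other populations, and DESeq2 called 1 in MSC and 0 elsewhere. Few genes passed at all: 0.0313% in MSC (5 genes), 0.0069% in HSC (1 gene) and 0% in CLP, GMP, MEP and Myeloid cells, where 29, 195, 444 and 437 genes had an unadjusted p under 0.05 and DESeq2 called 0, 0, 13 and 11. The median log2 difference of the members was largest in size in HSC, at -0.25, and Myeloid cells, at -0.18, and otherwise was -0.08 in MEP, 0.06 in GMP, -0.05 in CLP and 0.02 in MSC, and that of all genes lay between -0.03 and 0.02. A test of whether treatment effects differed between populations, in 1 fit of 53 sorted libraries, called 0 of 33 members and 0.0511% of genes (11 of 21525). The members with unadjusted p under 0.05 there were 2, where 1395 of the 21525 genes had one, and DESeq2 was not run on this test.

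**Figure D4:**
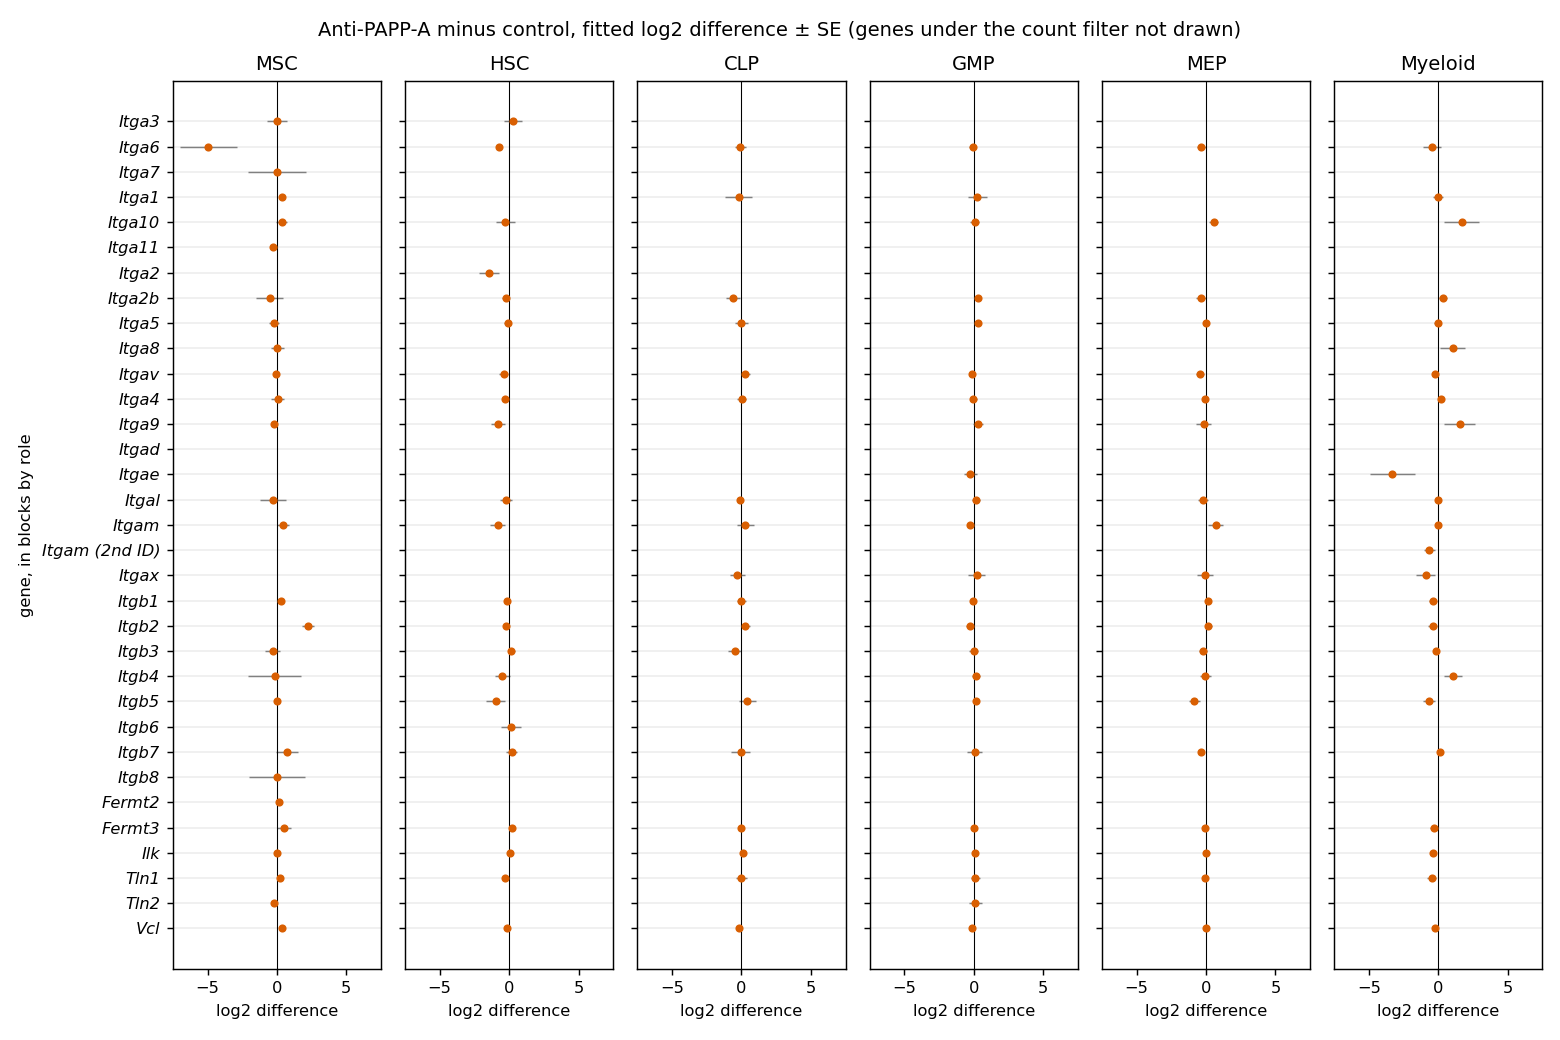
Log2 difference, anti-PAPP-A minus control, for each member tested in each sorted population, with bars of 1 SE. Most points lie near 0, none passed the adjusted threshold of 0.05, and the widest bars belong to members with few counts.

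In MSC the member with the smallest p was Itgb2, the leukocyte beta chain. Its level was 84.7 CPM in the treated library of batch A, against 15.5, 11.8 and 31.0 CPM in the controls of batch A. In batch C it was 3.96, 22.0 and 24.7 CPM in treated libraries, against 3.43, 3.07 and 4.60 CPM in controls. The treated library of batch A and 2 of 3 in batch C thus lay above all controls of their batch, and the third lay among them. The log2 difference was 2.23 (SE 0.458, unadjusted p = 8.5e-05, adjusted p = 0.170). DESeq2 called it (2.23, adjusted p = 0.00565), as did the fit without a filter on low counts (2.24, adjusted p = 0.000233), the joint fit of all sorted libraries (2.27, adjusted p = 0.000863) and the fit without treated pool 16 (2.56, adjusted p = 0.0084). In batch C alone the difference was 2.18 (adjusted p = 0.9995). Itgb2 rested on 42 counts in the shallow treated pool 8 and on 5 counts in the shallow control pool 7. In these 2 libraries 7 of 7 neutrophil markers were detected and summed to 12673 CPM in treated pool 8, and to 7715 CPM in control pool 7. In the other libraries the sum was 1514, 1726 and 1497 CPM in treated pools 16, 18 and 20, and 869 to 2757 CPM in controls. Without both shallow libraries Itgb2 differed by 2.19 (adjusted p = 0.987). Other leukocytes also carry Itgb2: 7 monocyte and macrophage markers summed to 17.3 to 123 CPM in treated and 21.2 to 435 CPM in control MSC. The part of blood cell RNA in this difference was not tested.

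**Figure D5:**
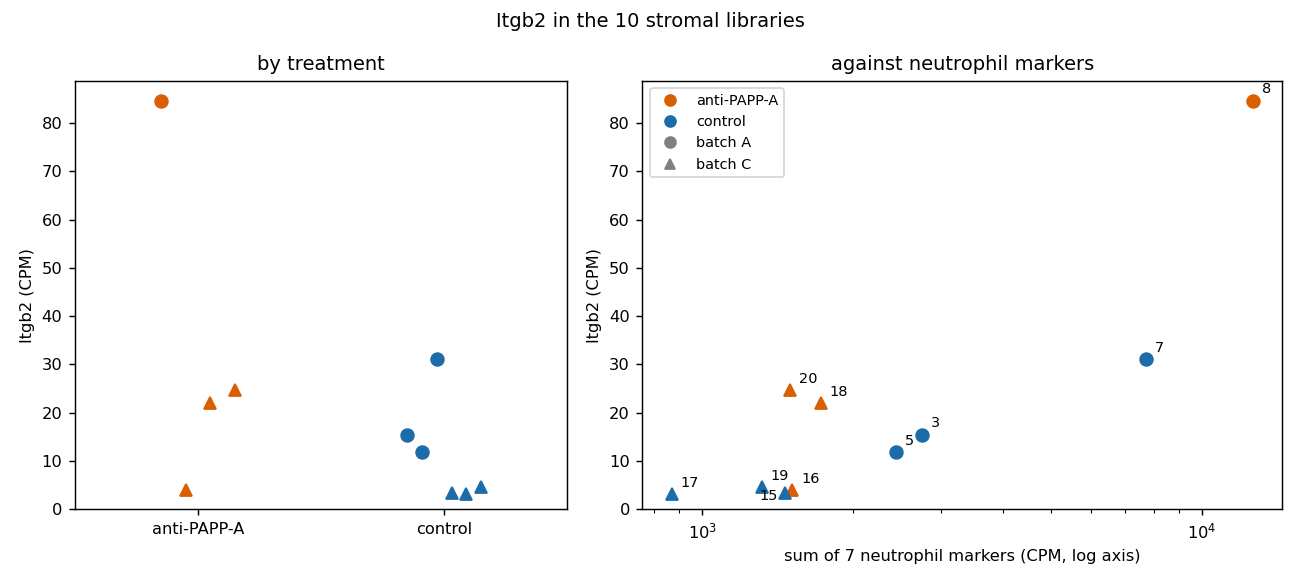
Itgb2 in the 10 MSC libraries, as CPM by treatment (anti-PAPP-A left of control, marker shape giving the batch) and against the summed CPM of 7 neutrophil markers. Treated pool 8 is highest on both measures, and treated pools 18 and 20 lie above the batch C controls in Itgb2. Markers of other leukocytes are not drawn.

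The other members named in MSC were Itga6 and Itga1. Itga6 was at 0, 0.0574, 0 and 0.0560 CPM in treated libraries and at 3.14, 1.87, 0, 3.05, 1.18 and 0 CPM in controls, so 2 controls shared the level of the treated ones. Its adjusted p was 0.999, and the joint fit called it lower (adjusted p = 0.013). Itga1, the collagen receptor chain, was at 165, 106, 96.9 and 109 CPM in treated libraries, against a lowest, median and highest of 80.9, 83.5 and 174 CPM in controls, at a difference of 0.38 (SE 0.201, adjusted p = 0.999). Of the ligands, Ibsp (bone sialoprotein) was the 1 called lower in treated MSC, by 0.99 (SE 0.174, adjusted p = 0.0437), with means of 2510 ± 288 CPM in treated (SD, n = 4) and 4799 ± 928 CPM in control libraries (SD, n = 6). Leaving out single libraries gave 0 to 4 calls over all genes in MSC, so the call of Ibsp did not hold in every such fit. Ibsp is also 1 of the 6 osteoblast markers, all detected, whose sum was 4276, 4204 and 4857 CPM in treated and 8126, 9882 and 9279 CPM in control MSC of batch C, and 13376 CPM in treated and 10431, 7750 and 26554 CPM in control MSC of batch A. The part of osteoblast RNA in this difference was not tested. No partner and no other ligand was called in any population. Per list these numbered 39 partners and 27 ligands tested in MSC, with medians of 0.09 and 0.12, against -0.03 over all genes.

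In HSC Itga6, the laminin receptor chain, was at 80.3, 54.0, 54.8 and 117 CPM in treated libraries and at 151, 178 and 113 CPM in controls. Treated pool 8 lay above 1 control, and the other treated libraries lay below all controls. The difference was -0.75 (SE 0.228, unadjusted p = 0.00449, adjusted p = 0.610), and -0.71 (adjusted p = 0.527) without the shallow treated pool 6. Without a filter on low counts it was called (adjusted p = 0.0492). The 6 stem cell markers, all detected, summed to 419, 570, 554 and 697 CPM in the same treated libraries and to 736, 873 and 655 CPM in controls, and their part in the difference was not tested. Itga2 was at 0.575, 0.278, 0 and 2.13 CPM in treated and at 3.72, 2.13 and 3.58 CPM in control HSC (adjusted p = 0.629). Itgam was at 1.53, 4.45, 0 and 6.76 CPM in treated and at 9.96, 8.25 and 5.57 CPM in control HSC (adjusted p = 0.681). In Itga2 the highest treated library lay just below the lowest control, and in Itgam 1 treated library lay above the lowest control.

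In the progenitors and Myeloid cells the 3 members with the smallest p overlapped between treatments. In CLP Itga2b was at 22.5, 25.5, 26.3 and 82.7 CPM in treated and at 59.3, 52.4, 23.2 and 88.9 CPM in control libraries. Its partner Itgb3 was at 14.5, 8.98, 7.61 and 20.4 CPM in treated and at 21.5, 15.7, 6.10 and 25.0 CPM in control CLP. For both, treated pool 8 and control pool 7 were the highest of their group, and 7 megakaryocyte and platelet markers were also highest in these libraries, at a sum of 138 CPM in each, against 16.5 to 77.3 CPM in the others. The part of such RNA was not tested. Itgb2 completed the 3 in CLP, at 76.1, 58.6, 47.8 and 33.0 CPM in treated and 38.8, 48.6, 52.5 and 32.3 CPM in control libraries.

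In GMP Itga5 was at 72.7, 49.3, 46.9 and 44.2 CPM in treated and at 45.7, 46.5, 34.4 and 48.1 CPM in control libraries. Itga2b was at 59.2, 64.6, 75.7 and 54.8 CPM in treated and 30.9, 67.3, 54.0 and 60.3 CPM in control GMP, and Itgb2 at 58.2, 28.3, 47.6 and 33.6 CPM in treated and 72.7, 40.5, 38.3 and 53.2 CPM in control GMP. Log2 differences in GMP stayed between -0.30 and 0.30 over all 23 members tested. In MEP Itgb5 was at 1.15, 2.57, 1.2 and 1.97 CPM in treated and at 1.11, 3.86, 3.55 and 4.20 CPM in control libraries. Itgb1 was at 223, 205, 232 and 238 CPM in treated and 220, 197, 179 and 237 CPM in control MEP, a difference of 0.16 (SE 0.0853), and Itga10 was at 4.04, 6.30, 2.52 and 3.95 CPM in treated and 3.13, 3.20, 3.43 and 2.12 CPM in control MEP.

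In Myeloid cells Itgae was at 0.485, 0.687 and 0.850 CPM in treated libraries of batch B, against 1.94, 0 and 1.61 CPM in controls, and at 0 in the 3 treated libraries of batch C, against 1.62, 3.38 and 3.19 CPM in controls. The batches thus differed in overlap, with none in batch C. Ilk was at 95.2, 126 and 255 CPM (lowest, median, highest) in treated and 116, 181 and 287 CPM in control Myeloid cells, at a difference of -0.36 (SE 0.213). The second Itgam record was at 3.39, 12.3 and 29.7 CPM in treated and 7.21, 20.8 and 37.1 CPM in control Myeloid cells, while Itgam itself was at 876, 1510.4 and 2210.5 CPM in treated and 1066.5, 1532 and 1765 CPM in controls. The smallest adjusted p in CLP, GMP, MEP and Myeloid cells was 0.995.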

How the data were processed

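Per the labels' protocols, RNA came from Qiagen RNeasy columns, and NEBNext Ultra II Directional libraries, which keep the strand, were sequenced. The authors deposited estimated counts per gene from Salmon, as whole numbers that were not scaled; the tools FastQC 0.11.5 and Salmon and the build mm10 are named per the submitters' processing notes, and the annotation release is not given in the sources used here. Genes repeated over several lines (18072) had identical values on each and were used once, and all sample names matched the labels, leaving 0 columns unused.

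Levels are CPM (counts scaled to a library of 1000000) with TMM scaling over all 57 libraries and 22219 genes. Per-kilobase levels divide by the length of the union of a gene's exons in GENCODE M21 (GRCm38). Tests used edgeR 4.0.16 (robust quasi-likelihood, TMM, filterByExpr, Benjamini-Hochberg) in R 4.3.3, checked on simulated data. SE is the absolute log2 difference divided by the square root of F. Alternatives were DESeq2 1.42.0, its size factors in edgeR, no low-count filter, leaving out shallow or single libraries, single batches, no batch term, a joint fit, and limma 3.58.1 voom for pools. Promoter windows are RefSeq's.

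Per the labels, populations that share a pool number came from the same mice; libraries of 1 pool deviated from their group means with a median correlation of 0.06 (76 pairs), against -0.01 for different pools (515 pairs). Pools are the replicates; p-values measure the spread between pools. Counting error grows in the 4 libraries under 1000000 counts.

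Members and lists were chosen with earlier results of these data known. Named by rule were, in population comparisons, up to 4 members higher and 4 lower with the smallest p, and, in treatment comparisons without a call, the 3 with the smallest p.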

Additional observations from a re-analysis of the deposited data

Results flagged for a closer look

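In 33 groups of 4 or 6 libraries (the members named in treatment comparisons), 3 had 1 library far from the rest by Dixon's ratio at 95%, which chance gives in about 1 in 20 groups. Itga2b was at 82.7 CPM in treated CLP pool 8, against 22.5 to 26.3 CPM in the other treated CLP libraries. Itga1 was at 173.8 CPM in the shallow control MSC pool 7, against 80.9 to 112 CPM in the other MSC controls. The second Itgam record, Itgam_ENSMUSG00000108596, was at 29.7 CPM in treated Myeloid pool 14, against 3.39 to 12.7 CPM in the other treated Myeloid libraries.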

How the results depend on the processing

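Treatment left 0 members past the threshold in CLP, GMP, MEP and Myeloid cells under the alternatives run. In MSC 1 member (Itgb2) passed with DESeq2 and with no low-count filter, 2 with the joint fit, and 0 to 1 on leaving out single libraries; in HSC 1 (Itga6) passed with no low-count filter. The 1 reversal was Itgb2 in CLP, at -0.037 without treated pool 2 (0.47 without treated pool 8, against 0.28). Over all genes, MSC gave 64 calls with DESeq2, 55 with no filter, 2 without shallow libraries, 3 in batch C alone, 1 without a batch term, 649 in the joint fit and 0 to 4 on leaving out libraries, against 5. HSC gave 5 with DESeq2, 181 with no filter, 0 in the joint fit and 1 to 149 on leaving out libraries (149 without treated pool 8), against 1. MEP gave 13 with DESeq2, 2 with no filter and 0 to 1 on leaving out libraries, and Myeloid cells 11 with DESeq2, 112 with no filter and 10 in the joint fit, against 0. No paired analysis was possible for treatment because treated and control pools share no number; in the test of differing treatment effects the replicate block (mouse pool) gave 7 genes and 0 members, against 11 and 0.

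Between populations the replicate block called 28 members in MSC, and changed no named call other than those of Itgad, Itga6 and Itgal given above. Without a batch term, an alternative chosen after seeing the data, Myeloid cells gave 26 members and 12010 genes, against 17 and 7307, and Myeloid against GMP 9374 genes, against 5838. Leaving out single libraries gave 5 to 8 members in GMP and 6 to 15 in CLP against HSC (1377 to 2867 genes), and 1835 to 2569 genes in MEP against HSC. Itgal in GMP was also not called by DESeq2 (adjusted p = 0.301). The size factors of DESeq2 moved the median of all genes by 0.21 in CLP, -0.20 in GMP, -0.18 in MEP, 0.17 in Myeloid cells, 0.29 in Myeloid against GMP and 0.18 in CLP against HSC. The causes were not tested.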
